A study of Mus musculus with 12 samples.

Results

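The 5 dopamine receptor genes, Drd1 to Drd5, were described in mouse whole striatum across saline-treated and methamphetamine-treated pools. They were taken by gene symbol, and they make up 5 of the 18208 genes with an RNA level and hold 140 of the 147438 distinct positions at which reads cross-linked to the RNA-binding protein hnRNP H were counted. Of those 140 positions (100-nt windows), 117 lie in Drd2, 19 in Drd1, 3 in Drd5, 1 in Drd4 and none in Drd3.

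The study asked where hnRNP H sits on striatal RNA after an acute stimulant dose. All mice were wild type C57BL/6J, offspring of males heterozygous for an Hnrnph1 mutation and C57BL/6J females, aged between postnatal days 50 and 100. Every mouse received saline (10 ml/kg, into the peritoneum) on days 1 and 2. On day 3 the saline group received saline again, and the methamphetamine group received 2 mg/kg methamphetamine, a psychostimulant that releases dopamine. Whole striata were taken 30 min after that injection. A replicate is a pool of 4 mice (2 females and 2 males, from several litters), so the spread between replicates is a spread between pools. Each treatment had 3 pools. From each pool an RNA-seq library was made before cross-linking, and a CLIP-seq library (sequencing of RNA fragments of 30 to 70 nt that were UV cross-linked to hnRNP H and pulled down with an antibody) was made after it. Samples carrying the Hnrnph1 mutation were not analysed here.

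Dopamine receptors are G-protein-coupled receptors of opposing kinds. The D1 class (D1 and D5, encoded by Drd1 and Drd5) couples to stimulatory G proteins and raises cyclic AMP, and the D2 class (D2, D3 and D4, encoded by Drd2, Drd3 and Drd4) couples to inhibitory G proteins and lowers it. In the striatum D1 marks the direct-pathway projection neurons and D2 the indirect-pathway neurons, and D2 also acts as the autoreceptor on dopamine axons, whose cell bodies lie in the midbrain. D2 exists in a long and a short form, which differ by inclusion of exon 6. hnRNP H is a nuclear protein that binds runs of G and takes part in splicing and polyadenylation.

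The sequences under the CLIP windows in exons are shown for the window with the most reads of Drd1 and of Drd4, for the exonic windows of Drd2, and for the coding window of Drd5. They are the transcript strand, 5′ to 3′, of GENCODE M21 transcripts on GRCm38 (mm10), with every run of at least 3 G in capitals, and windows in untranslated regions (UTRs) are cut to 30 bases around their longest run. The Drd1 stretch is from the 5′ UTR in exon 2 (chr13:54054247-54054276, minus strand), the Drd2 stretches are from coding exon 5 (chr9:49402128-49402227, plus strand) and from the 3′ UTR in exon 8 (chr9:49407734-49407763, plus strand), the Drd4 stretch is from coding exon 1 (chr7:141292107-141292206, plus strand), and the Drd5 stretch is from the coding part of its only exon (chr5:38320968-38321067, plus strand).
Drd1 5′ UTR: gtggtgagtgattGGGGGaagtctggctaa
Drd2 exon 5: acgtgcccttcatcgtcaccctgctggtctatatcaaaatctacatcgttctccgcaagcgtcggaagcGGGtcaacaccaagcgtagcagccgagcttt
Drd2 3′ UTR: ttctgtacccttcGGGGGaaaacaactcta
Drd4 coding: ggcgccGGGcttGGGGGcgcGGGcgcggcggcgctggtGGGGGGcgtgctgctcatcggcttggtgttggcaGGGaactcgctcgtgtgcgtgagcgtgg
Drd5 coding: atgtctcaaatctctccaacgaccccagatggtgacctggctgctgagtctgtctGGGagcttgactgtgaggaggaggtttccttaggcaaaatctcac

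Of the 140 windows, 21 lie wholly in annotated exons, and 14 of those 21 (66.7%) hold the letters GGG on the transcript strand. Among all 24074 such exonic windows of the table the share was 70.9%. Runs of 4 G (GGGG, each of which also holds GGG) were in 4 of the 21 (19.0%), against 36.5% of all exonic windows. The exonic window with the most reads of any receptor, in the 5′ UTR of Drd5, holds no GGG although 72% of its bases are G or C. The presence of these letters is a description of the windows, not of binding sites.

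The RNA values were deposited as log2 CPM (the log2 of counts scaled to a common library size, as voom gives it), and the reads behind them could be recovered as whole numbers, 3935160 to 5091839 per library. The CLIP libraries held 423057 to 1635338 reads in the counted windows. The RNA libraries fall into 2 sets that the treatments do not explain and that earlier results of these data had shown. They are called the A libraries (saline replicates 1 and 3 and methamphetamine replicate 2) and the B libraries (saline replicate 2 and methamphetamine replicates 1 and 3). The sets come from the data and not from the labels. The labelled tissue was checked by its markers: 9 of 9 marker genes of striatal projection neurons were measured, none at 0, with a summed level of 8498 to 9810 CPM in the A libraries and 6037 to 6939 CPM in the B libraries. Summed levels of 9 cortical excitatory neuron markers were 196 to 459 CPM in the A libraries and 481 to 886 CPM in the B libraries, and 8 of the 9 had higher means after methamphetamine (median 0.36, log2; 1 with an unadjusted limma p under 0.05). The 10 choroid plexus markers summed to 5028 CPM in methamphetamine replicate 2 and to 65.7 to 232 CPM in the others. The 8 oligodendrocyte markers were all higher in mean after methamphetamine (median 0.48, log2), with summed levels of 5052 to 12349 CPM in saline and 8009 to 12295 CPM after methamphetamine. The part of these differences in the receptor values below was not tested.

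Drd1 and Drd2 were the abundant receptors of the striatum, and the other 3 were covered by only 5 to 30 reads per library. Per kilobase of transcript, averaged over the 6 RNA libraries, Drd2 was at 125 ± 22.5 CPM per kb (SD, n = 6) and Drd1 at 43.3 ± 3.53 CPM per kb. Drd5 followed at 1.57 ± 0.49, Drd3 at 1.27 ± 0.46 and Drd4 at 0.888 ± 0.41 CPM per kb (SD, n = 6 each). On this length-scaled measure Drd2 stood at percentile 97.9 and Drd1 at percentile 92.8 of the 17927 genes with a transcript length, while Drd5, Drd3 and Drd4 stood at percentiles 36.5, 33.4 and 27.9. Drd2 exceeded Drd1 by 2.89-fold per kilobase, with every Drd2 library (104 CPM per kb or more) above every Drd1 library (49.3 or less). Drd1 exceeded Drd5 by 27.7-fold, again in 6 of 6 libraries. The order of Drd5, Drd3 and Drd4 was not separated: Drd5 was above Drd4 in 5 of 6 libraries, and the ranges of the 3 genes overlapped.

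No difference in receptor RNA between treatments passed the test. In limma's test over all 18208 genes, 0 of the 5 passed an adjusted p of 0.05, as did 0% of all genes, and 0 of the 5 had an unadjusted p under 0.05, against 1.52% of all genes (276).

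The D1 class is described first. Drd1 (ENSMUSG00000021478, chr13:54051183-54055705, minus strand), the receptor of direct-pathway neurons, had RNA levels of 7.46, 7.26 and 7.32 log2 CPM in the saline pools 1, 2 and 3 and 7.24, 7.11 and 7.22 log2 CPM in the methamphetamine pools, from 606 to 774 reads. All 3 methamphetamine libraries lay below all 3 saline libraries, a pattern (no overlap, lower after methamphetamine) shared by 3.58% of all genes and by 1.53% of the 7853 genes with a mean above 4 log2 CPM. The group means were 7.35 ± 0.10 and 7.19 ± 0.07 log2 CPM (SD, n = 3 each), and the change of -0.15 ± 0.15 (SE, log2) did not pass the test (limma adjusted p = 0.9998). The non-overlap depended on the scaling. The authors' library sizes are 0.860 to 0.904 times the recovered read total in the A libraries and 1.01 to 1.02 times in the B libraries. With the plain read totals Drd1 was at 7.32, 7.27 and 7.10 log2 CPM in saline and at 7.27, 6.96 and 7.25 log2 CPM after methamphetamine, so that the groups overlapped and the change was -0.07. Among the A libraries the deposited values differed by -0.28 between treatments, and among the B libraries by -0.03. Such within-set differences, here and below, are not replicated on both sides. Methamphetamine replicate 2 is the only methamphetamine A library, and saline replicate 2 the only saline B library.

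Drd5 (ENSMUSG00000039358, chr5:38319367-38322518, plus strand), the other stimulatory receptor, had RNA levels of 2.84, 2.69 and 2.03 log2 CPM in saline and 2.10, 1.62 and 2.18 log2 CPM after methamphetamine. These values rest on 25, 30 and 16 reads in saline and 21, 13 and 23 reads after methamphetamine. The highest 2 libraries were saline and the lowest was methamphetamine replicate 2, but saline replicate 3 lay below 2 methamphetamine libraries. The change was -0.55 ± 0.36 (SE, log2, n = 3 per group, limma adjusted p = 0.9998). An antisense gene, Gm26560 (chr5:38317333-38320897, minus strand), overlaps its 5′ part. Whether the counting used strand is not given in the sources used here, so reads of Drd5 and Gm26560 cannot be told apart with certainty.

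Of the D2 class, Drd2 (ENSMUSG00000032259, chr9:49340627-49408177, plus strand), the receptor of indirect-pathway neurons, had 8.47, 8.16 and 8.68 log2 CPM in saline and 8.05, 8.35 and 8.06 log2 CPM after methamphetamine, from 1262 to 1659 reads. The treatments overlapped, whereas the library sets did not: the 3 A libraries were at 8.35 to 8.68 and the 3 B libraries at 8.05 to 8.16 log2 CPM. The A libraries were likewise above the B libraries without overlap in 18.9% of all genes. The group means were 8.44 ± 0.26 and 8.15 ± 0.17 log2 CPM (SD, n = 3 each). The change of -0.29 ± 0.19 (SE, log2) did not pass (limma adjusted p = 0.9998), and it was -0.23 among the A libraries and -0.11 among the B libraries. On plain read totals it was -0.20, and the sets still did not overlap. On that scale the A libraries were above the B libraries without overlap in 10.9% of all genes. In bulk tissue, fewer cells of a type and less RNA per cell cannot be told apart, which holds for every receptor level given here.

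Drd3 (ENSMUSG00000022705, chr16:43754026-43822932, plus strand), a receptor best known from the ventral striatum, had 1.42, 1.28 and 0.69 log2 CPM in saline and 0.76, 0.33 and 1.76 log2 CPM after methamphetamine, from 5 to 17 reads. The highest and the lowest library were both methamphetamine, and the change was -0.18 ± 0.51 (SE, log2). Drd4 (ENSMUSG00000025496, chr7:141292006-141296464, plus strand), a receptor best known from cortex and retina, had 1.81, 0.22 and 2.03 log2 CPM in saline and 1.20, 1.26 and 0.53 log2 CPM after methamphetamine, from 5 to 16 reads. The A libraries (1.26 to 2.03) lay above the B libraries (0.22 to 1.20) as for Drd2, but overlapped them on plain read totals. Its change was -0.36 ± 0.56 (SE, log2), with -0.66 among the A libraries and 0.65 among the B libraries. Neither passed the test (limma adjusted p = 0.9998), and at 5 to 17 reads per library their standard errors exceed the change of -0.29 measured for Drd2, so a change of that size was not detectable.

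**Figure D1:**
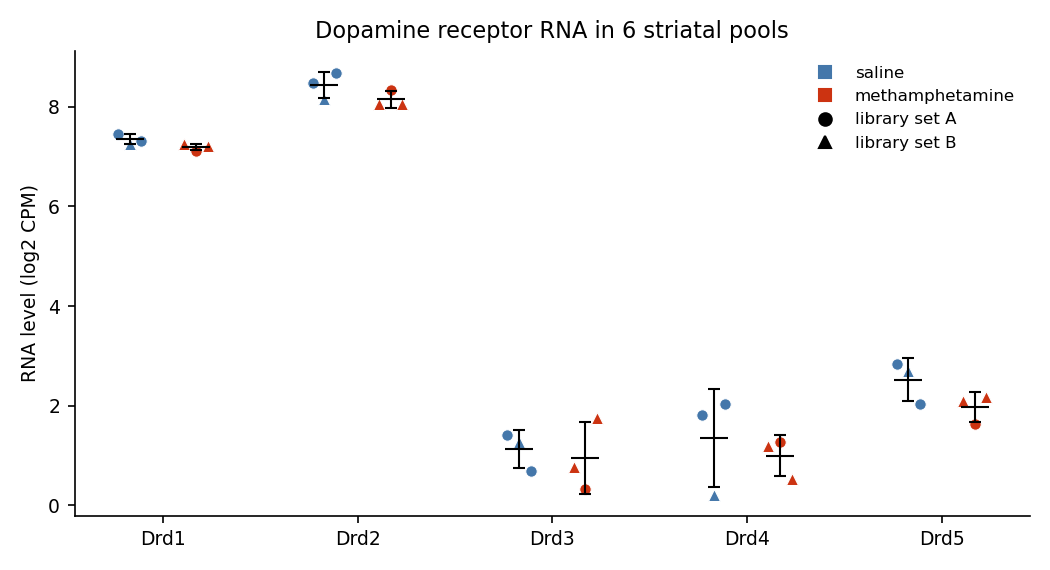
RNA level (log2 CPM, y axis) of the 5 dopamine receptor genes in each of the 6 pools, blue for saline and red for methamphetamine, circles for A libraries and triangles for B libraries, with the mean and SD of 3 pools as bars. Drd1 and Drd2 sit between 7.11 and 8.68 log2 CPM and the other 3 receptors at 2.84 or below, and for Drd2 and Drd4 the circles lie above the triangles.

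The balance of the receptors of the direct and indirect pathways, Drd1 minus Drd2 per library, was -1.01, -0.90 and -1.36 (log2 CPM) in saline and -0.81, -1.23 and -0.84 after methamphetamine. The treatments overlapped, and their means of -1.09 ± 0.24 and -0.96 ± 0.24 (SD, n = 3 each) differed by 0.13 (exact permutation test, two-sided, p = 0.5; 3 against 3 cannot give less than 0.1). The library sets did not overlap on this balance, at -1.36 to -1.01 in the A libraries and -0.90 to -0.81 in the B libraries. How often other pairs of genes separate the sets is not given here.

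Relative to striatal neuron genes, Drd2 took a narrower range over the 6 libraries than Drd1. Drd2 minus the mean log2 CPM of the 9 striatal markers was -0.90, -0.94 and -0.78 in saline and -0.93, -0.93 and -0.89 after methamphetamine, a difference between group means of -0.04. All 6 values lay between -0.94 and -0.78. Drd1 on the same scale was -1.91, -1.84 and -2.14 in saline and -1.74, -2.16 and -1.73 after methamphetamine, so that the A libraries (-2.16 to -1.91) lay below the B libraries (-1.84 to -1.73). The share of all genes with that order on this scale is not given here. The difference of Drd1 between treatments was 0.09, opposite in sign to that of the deposited levels. This scaling raises the median change of all genes by 0.24, so the change of Drd1 is below the median of all genes on either scale.

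**Figure D2:**
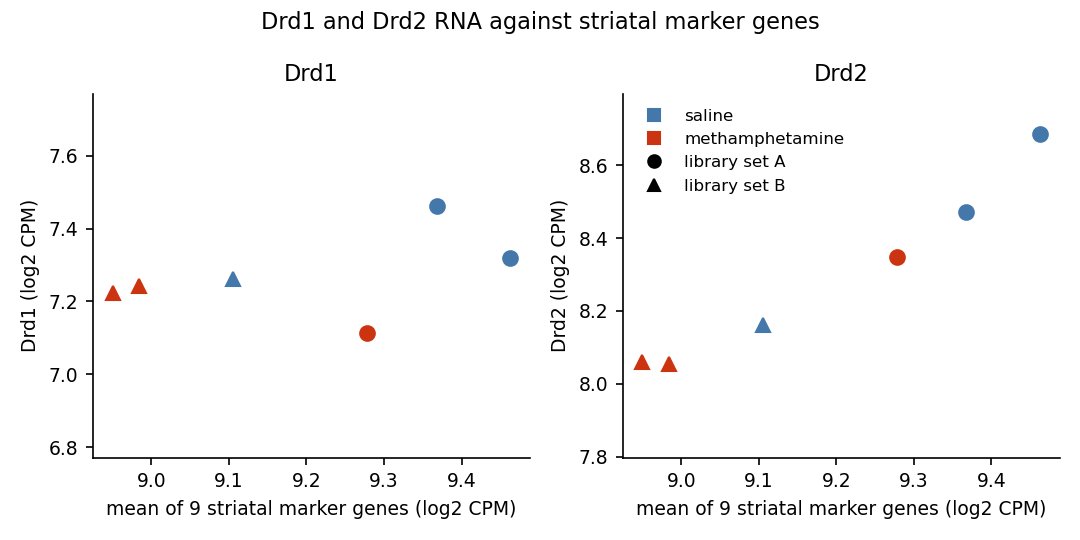
RNA level of Drd1 (left) and Drd2 (right; y axes, log2 CPM, each 1 unit high) against the mean of 9 striatal marker genes (x axis, log2 CPM) in the 6 libraries, with colours for treatment and circles and triangles for the A and B libraries. Drd2 and the marker mean are higher in the 3 A libraries (8.35 to 8.68 log2 CPM for Drd2) than in the 3 B libraries, and Drd1 shows no such order.

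Genes whose profile over the 6 RNA libraries was close to each receptor were found by the root-mean-square difference of centred log2 CPM, among 7852 other genes with a mean above 4 log2 CPM. For Drd1 they included Aarsd1 (0.033), Dis3l (0.037), the translation initiation factor gene Eif5 (0.038) and Zfp46 (0.042), against a median of 0.244 over all genes. For Drd2 they included Asic4 (0.028), of the acid-sensing channel family, Cdc42ep3 (0.036), Trim11 (0.039) and Cacng4 (0.044), of the family of calcium channel γ subunits, against a median of 0.308.

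Genes of the dopamine pathway were read from the same fit, and none of the lists held a gene past an adjusted p of 0.05 (limma) or an unadjusted p of 0.05. Of 10 genes of stimulatory transduction below D1-class receptors, 9 had lower and 1 higher mean values after methamphetamine, with a median change of -0.19 against 0.002 over all genes (log2). The 3 largest changes were those of Ppp1r1b (DARPP-32, the protein kinase A target of projection neurons) at -0.36 ± 0.31, of Prkar2b (a regulatory subunit of protein kinase A) at -0.28 ± 0.14, and of Adcy5 (the main striatal adenylyl cyclase) at -0.26 ± 0.31 (SE). The summed level of these 10 genes also separated the library sets, at 10349 to 11679 CPM in the A libraries and 8043 to 8891 CPM in the B libraries. Of 16 genes of inhibitory transduction and receptor desensitisation, 10 were higher and 6 lower, with a median of 0.005; with libraries centred on their median gene the counts were 7 and 9, and on plain read totals 13 and 3. Among them the receptor kinase genes Grk3 and Grk2 had changes of 0.28 ± 0.25 and 0.24 ± 0.21, and Rgs7bp, which anchors a G-protein regulator, of -0.18 ± 0.18 (SE).

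Genes of the neurons that carry the receptors were read in the same way (Chrm4 and Gpr52 of these lists were not in the table used here). Of 6 other direct-pathway genes measured, 5 were lower and 1 higher after methamphetamine, with a median of -0.16, and the largest changes were those of Eya1 (-0.38 ± 0.31), Slc35d3 (-0.31 ± 0.31) and Pdyn, the prodynorphin gene (-0.21 ± 0.26; SE, log2). Of 5 other indirect-pathway genes, 4 were lower and 1 higher, with a median of -0.22. The largest were those of Gpr6 (-0.33 ± 0.17), Penk, the proenkephalin gene (-0.30 ± 0.17), and Adora2a, the adenosine receptor gene of indirect-pathway neurons (-0.22 ± 0.19; SE, log2). All 9 striatal marker genes, some of which are in the transduction lists, were lower after methamphetamine too, with a median of -0.21. Without overlap, 6 of the 9 were higher in the A than in the B libraries, against 18.9% of all genes, and 1 (Rarb) was lower. Of 7 genes of dopamine synthesis, transport and breakdown, 3 were higher and 4 lower (median -0.13). Ddc, which makes dopamine from L-DOPA, was at -0.57 ± 0.34, and the monoamine oxidase genes Maoa and Maob at 0.26 ± 0.67 and -0.25 ± 0.31. Low RNA levels limit the changes of Ddc (1.62 to 2.60 log2 CPM), Maoa (0.16 to 2.82) and Eya1 (2.23 to 3.02), as they do for Drd5. The 8 markers of midbrain dopamine neurons, which also express Drd2, summed to 37.2 to 64.2 CPM in saline and 45.4 to 82.2 CPM after methamphetamine, with 3 higher and 5 lower in mean (median -0.18). Nr4a2, which encodes a nuclear receptor, made up 16.7 to 45.3 CPM of that sum in saline and 29.9 to 69.9 CPM after methamphetamine, and the other 7 summed to 18.9 to 20.5 CPM and 12.2 to 21.8 CPM.

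hnRNP H CLIP reads were found on Drd1, Drd2 and Drd5 in every library. No CLIP control without the hnRNP H antibody was analysed here. Reads were summed per gene over its distinct windows, and 8167 genes passed the count filter and were tested with edgeR's quasi-likelihood test. Drd1, Drd2 and Drd5 were among them, and 0 of the 3 passed an adjusted p of 0.05, as did 0% of all genes tested. At an unadjusted p of 0.05 it was 0 of 3, against 5.22% of all genes (426).

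Drd2 carried most of the receptor reads, 1000 over the 6 libraries. Its windows held 185, 36 and 225 reads in saline and 304, 152 and 98 reads after methamphetamine, which is 176, 85.1 and 138 CPM and 334, 155 and 165 CPM of the CLIP library totals. Methamphetamine replicate 1 was the highest and saline replicate 2, the library with the fewest reads, the lowest, and the treatments overlapped. The change was 0.72 ± 0.44 (SE, log2, n = 3 per group; edgeR adjusted p = 0.883). Without methamphetamine replicate 1 it was 0.24.

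Drd1 windows held 11, 5 and 39 reads in saline and 41, 11 and 12 reads after methamphetamine, or 10.4, 11.8 and 23.8 CPM and 45.1, 11.2 and 20.2 CPM. The treatments overlapped, with methamphetamine replicate 1 again highest. The change of 0.72 ± 0.63 (SE, log2; edgeR adjusted p = 0.885) became -0.04 without that library.

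Drd5 windows held 25, 10 and 116 reads in saline and 17, 18 and 14 reads after methamphetamine, or 23.7, 23.6 and 70.9 CPM and 18.7, 18.4 and 23.5 CPM. Saline replicate 3 stood apart from the other 5 libraries, and the remaining saline values lay just above the highest methamphetamine value. Groups that do not overlap and are lower after methamphetamine were found in 3.99% of all genes tested. The change of -0.98 ± 0.54 (SE, log2) did not pass (edgeR adjusted p = 0.882), and without saline replicate 3 it was -0.30. The single Drd4 window held 1, 1 and 1 reads in saline and 0, 3 and 1 after methamphetamine and was too low to be tested. Drd3 had no counted window, like 27.4% of all 18208 genes and 35.3% of the 2971 genes with a mean of 0.5 to 2.5 log2 CPM. Since the table holds only called windows, this sets no upper limit on its CLIP reads.

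**Figure D3:**
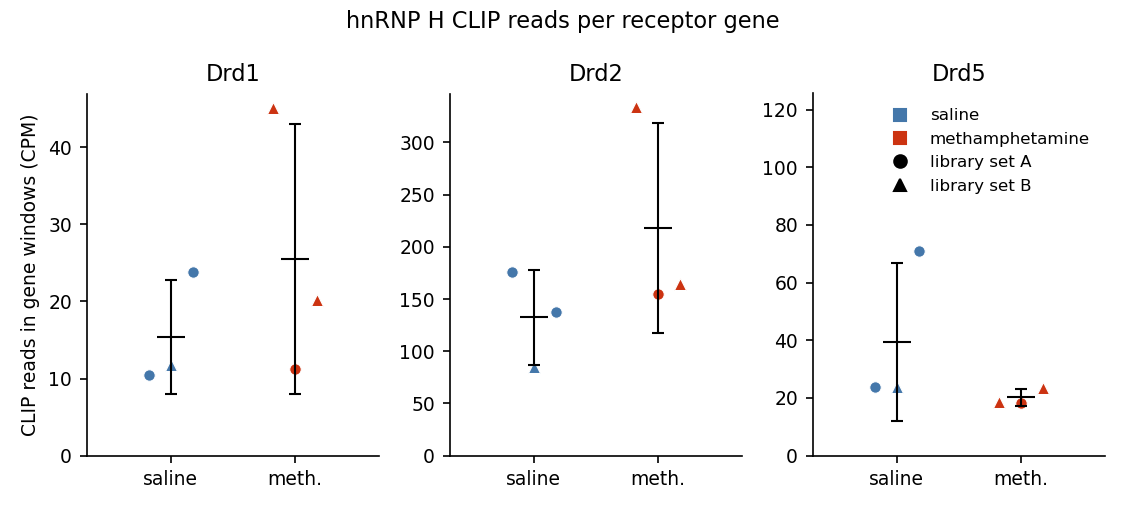
CLIP reads per gene (CPM of the library's reads in windows, y axis from 0) for Drd1, Drd2 and Drd5 in the 3 saline and 3 methamphetamine (meth.) pools, with the mean and SD as bars and circles and triangles for the A and B libraries. Methamphetamine replicate 1 is the highest library for Drd1 (45.1 CPM) and Drd2 (334 CPM), and saline replicate 3 for Drd5 (70.9 CPM).

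Set against the RNA of the same pool, the receptors ranked differently for CLIP than for RNA. The log2 ratio of CLIP CPM to RNA CPM (0.5 CPM added to CLIP) was computed for 7185 genes, whose median was 0.039. Drd1 was low, at -4.01, -3.64 and -2.71 in saline and -1.73, -3.56 and -2.85 after methamphetamine, a mean of -3.09 at percentile 4.93 of all genes. Drd2 was at -1.01, -1.74 and -1.57 in saline and 0.33, -1.07 and -0.69 after methamphetamine, a mean of -0.96 at percentile 31.1. Drd5 was high, at 1.76, 1.91 and 4.13 in saline and 2.16, 2.61 and 2.41 after methamphetamine, a mean of 2.50 at percentile 80.5. All 6 Drd5 ratios were above all 6 Drd2 and Drd1 ratios, so the receptor with the lowest RNA of these 3 had the most CLIP reads for its RNA. Genes entered only with at least 10 CLIP reads in at least 3 libraries. A gene as low in RNA as Drd5 passes that filter only if its ratio is fairly high, and Drd3 and Drd4 did not enter. The place of Drd5 in this order and its percentiles are therefore in part set by the filter. Reads of the antisense gene may be among those of Drd5, as given above. Intronic windows count for CLIP, so the ratio was also read against gene length. Among genes of similar length (within a factor of 2) Drd1 was at percentile 14.0 of 693, Drd2 at percentile 30.4 of 2878 and Drd5 at percentile 84.4 of 435.

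No change of a receptor's ratio between treatments passed the test: 0 of the 3 passed an adjusted p of 0.05 in limma's test, as did 0% of the 7185 genes, and 0 of the 3 had an unadjusted p under 0.05, against 2.91% of all genes (209). The change was 0.97 ± 0.50 for Drd2 (limma adjusted p = 0.998), 0.74 ± 0.59 for Drd1 and -0.20 ± 0.78 for Drd5 (SE, log2, n = 3 per group). For Drd2 the difference was 0.23 among the A libraries and 1.56 among the B libraries. The latter rests on saline replicate 2 as the only saline library, with 36 Drd2 CLIP reads.

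The CLIP reads of Drd2 lay mainly in its first intron. Introns held 92.4% of the gene's 1000 reads, between 88.9% and 94.6% in each library. Intron 1 held 107 of the 117 windows and 89.2% of the reads, or 16.3 reads per kb of intron. It is 54860 nt long in a gene of 67551 nt, so it is also most of the gene's length. By distance from the start of the gene, in steps of 10 kb, intron 1 held 143, 319, 188, 26, 109 and 107 reads. These lay in 25, 34, 21, 7, 13 and 7 windows. The intron ends within the last step, which is therefore shorter than the others. Reads were densest between 10 and 20 kb and sparse between 30 and 40 kb.

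The deposited lists of hnRNP H peaks, 1 per treatment, with 9537 (saline) and 9903 (methamphetamine) distinct positions, held 7 windows of the receptors, 6 in the saline list and 3 in the methamphetamine list, of which 2 were in both. Of these, 5 were in Drd2 intron 1. In the order of the gene they are chr9:49354428-49354527 (methamphetamine list), chr9:49359328-49359427, chr9:49359528-49359627 and chr9:49366728-49366827 (saline list), and chr9:49392728-49392827 (both lists). The peak signal that the authors' deposited table gives was 1.01, 1.17, 1.32 and 1.71 for the first 4 and 1.43 (saline) and 1.25 (methamphetamine) for the last. Drd2's best peak stood at percentile 51.4 of signal within the saline list and at percentile 20.7 within the methamphetamine list.

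The Drd2 window with the most reads, chr9:49366728-49366827, held 26, 1 and 23 reads in saline and 5, 15 and 2 reads after methamphetamine. Its high libraries were saline 1, saline 3 and methamphetamine 2, which are the A libraries, and not those of a treatment. How often windows of other genes show this order is not given here. The next window, chr9:49392728-49392827, held 18, 0 and 26 reads (17.1, 0 and 15.9 CPM) in saline. After methamphetamine it held 1, 19 and 6 reads (1.10, 19.4 and 10.1 CPM), with the same 3 libraries highest on either scale. With Drd5's 5′ UTR window these were the 3 of the 140 receptor windows that passed the count filter, and 0 of the 3 passed an adjusted p of 0.05 in edgeR's test, as did 0% of 10358 windows tested (3.35% had an unadjusted p under 0.05, and 0 of the 3). Their changes were -0.61 ± 0.75 and -0.10 ± 0.96 (SE, log2).

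The window at chr9:49359328-49359427 held 22, 1 and 4 reads in saline and 1, 5 and 3 after methamphetamine, mostly from saline replicate 1. The window at chr9:49359528-49359627 held 15, 2 and 13 reads in saline and 0, 8 and 3 after methamphetamine. The window of the methamphetamine list alone, chr9:49354428-49354527, held 5, 0 and 0 reads in saline and 16, 0 and 4 after methamphetamine, so that 3 of the 6 libraries had none. These 3 windows were too low to be tested. For these 3, presence in 1 list and not in the other was therefore not a tested difference.

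**Figure D4:**
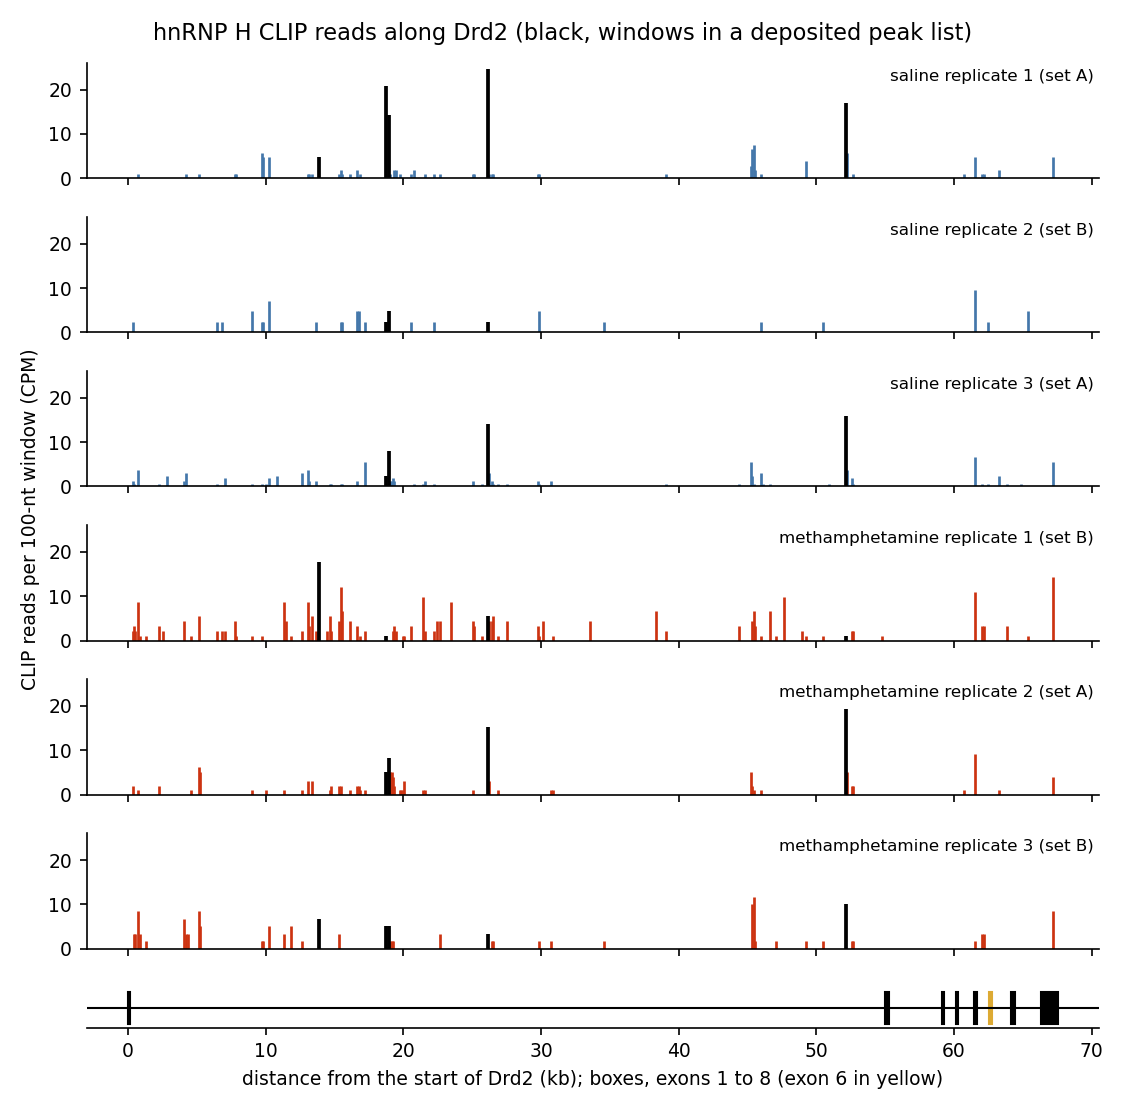
CLIP reads per 100-nt window (CPM, y axes from 0 to 26) along Drd2 by distance from the start of the gene (x axis, kb), 1 panel per library, with windows of a deposited peak list in black and the exons as boxes (exon 6 in yellow). The black windows at 26 and 52 kb are tall in saline replicates 1 and 3 and in methamphetamine replicate 2, and no window overlaps exon 6.

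The share of Drd2 reads in the 5 listed windows is given as a description, because the lists were made from these same libraries: 4 of the 5 windows are in the saline list, and of the saline CLIP reads pools 1 and 3 hold 1053269 and 1635338 against 423057 in pool 2. A high share in those libraries is in part set by how the windows were chosen. It was 46.5% (95% Wilson interval 39.4 to 53.7), 11.1% (4.40 to 25.3) and 29.3% (23.8 to 35.6) in saline and 7.57% (5.09 to 11.1), 30.9% (24.1 to 38.7) and 18.4% (11.9 to 27.2) after methamphetamine. These intervals cover counting error only. A libraries were at 29.3% to 46.5% and B libraries at 7.57% to 18.4%, without overlap, while the treatments overlapped. How often other genes show this pattern is not given here. The other 112 windows of Drd2 held 94.0, 75.6 and 97.2 CPM in saline and 309, 107 and 134 CPM after methamphetamine. Here all 3 methamphetamine libraries lay above all 3 saline libraries, but this split of the windows was chosen after the values were seen and was not tested. Taking out the listed windows removed 9.45 to 81.7 CPM from the saline libraries and 25.3 to 48.0 CPM from the methamphetamine libraries. The order of the remainder is therefore also in part set by how the windows were chosen. With all 117 windows kept, the treatments overlapped. Among all genes tested for CLIP reads, with no window taken out, 5.24% had groups that did not overlap and were higher after methamphetamine.

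**Figure D5:**
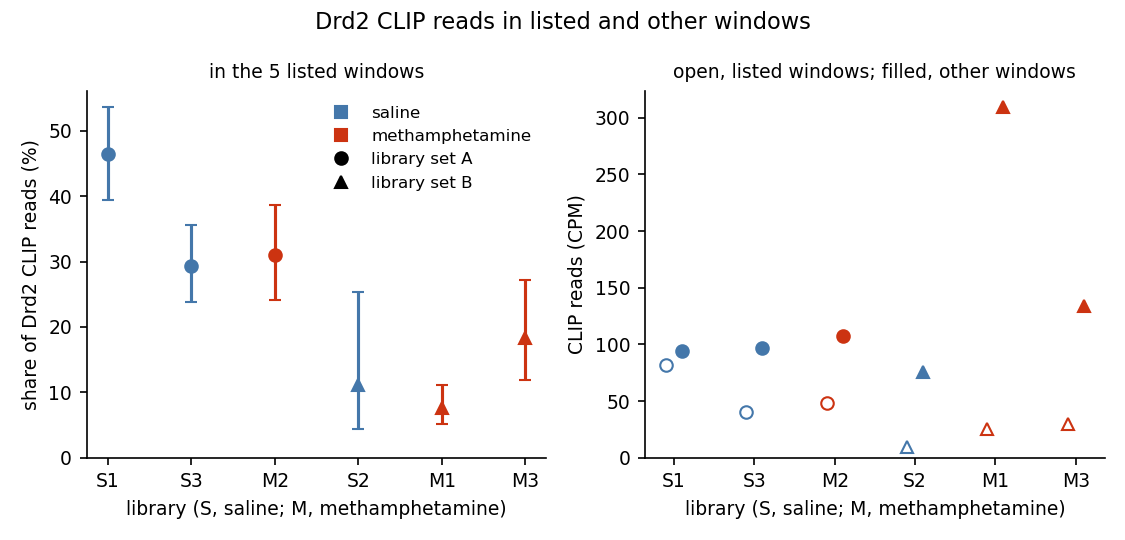
Left, share of each library's Drd2 CLIP reads (%, with 95% Wilson intervals) in the 5 windows of Drd2 that a deposited peak list holds; right, CLIP reads (CPM) in those 5 windows (open symbols) and in the other 112 (filled symbols), with A libraries first. The share is 29.3% or more in the 3 A libraries and 18.4% or less in the 3 B libraries, and the filled symbols of the methamphetamine libraries are at 107 to 309 CPM.

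Exonic CLIP reads of Drd2 came from a window in exon 5 and a window in the 3′ UTR, whose sequences are given above. The exon 5 window (chr9:49402128-49402227) held 5, 4 and 11 reads in saline and 10, 9 and 1 after methamphetamine, 40 in all. That is 209 reads per kb of the 191-nt exon, against 28.2 per kb in exon 8 and 16.3 per kb in intron 1. Reads were counted only in called windows, so these densities depend on how much of each part was called. Per window, intron 1 reached 72 reads. The exon 5 window codes for part of the receptor, ends 28 nt before the end of exon 5 and holds a single run of 3 G. The 3′ UTR window (chr9:49407728-49407827) held 5, 0 and 9 reads in saline and 13, 4 and 5 after methamphetamine, 36 in all. Neither passed the count filter.

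No counted window overlapped exon 6 (chr9:49403194-49403280), the 87-nt exon of 29 codons that is present in the long and absent from the short form of D2. The nearest window ended 66 nt upstream of it, in intron 5, and held 2 reads over all libraries. The exon 5 window lies 966 nt upstream of exon 6. Windows of introns 5 and 6, which flank it, held 15 and 11 reads in total. The gene-level RNA values used here do not separate the long from the short form.

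In Drd1, a gene of 1 short intron, the 119 CLIP reads were spread over the gene: 45 in 11 windows of the 3′ UTR, 42 in 4 windows of the intron, 19 in 1 window of the 5′ UTR and 13 in 3 coding windows. Its 19 windows cover 42.2% of the 100-nt steps of the gene, against 17.3% in Drd2. The 5′ UTR window (chr13:54054184-54054283), whose run of 5 G is shown above, had the most reads of Drd1, with 2, 1 and 8 in saline and 4, 3 and 1 after methamphetamine. Of the 3′ UTR reads, 24 came from methamphetamine replicate 1, and the other 5 libraries had between 1 and 9. No Drd1 window was in either deposited list, and none passed the count filter.

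In Drd5, which has a single exon and no intron, 145 of 200 reads (72.5%) lay in the 5′ UTR window chr5:38319368-38319467. It held 18, 6 and 86 reads in saline and 9, 15 and 11 after methamphetamine, more than any other receptor window. The change was -0.76 ± 0.58 (SE, log2; edgeR adjusted p = 0.9998), with saline replicate 3 far above the other libraries in reads; that library also had the most CLIP reads in all. The coding window (chr5:38320968-38321067) held 7, 1 and 30 reads in saline and 1, 3 and 3 after methamphetamine. The 3′ UTR window held 0, 3 and 0 reads in saline and 7, 0 and 0 after methamphetamine. In the authors' deposited table the 5′ UTR window had a peak signal of 1.90 in saline and 1.66 after methamphetamine, and the coding window of 2.07 in saline. A further position that the saline list names Drd5 lies on the minus strand (chr5:38319434-38319533) and belongs to the antisense gene Gm26560. It overlaps the 5′ UTR window and held 4, 0 and 10 reads in saline and 0, 1 and 1 after methamphetamine.

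The 1 window of Drd4 (chr7:141292107-141292206) is in the coding part of exon 1 and holds 5 runs of G, the longest of 6, as its sequence shows. Its 7 reads over 6 libraries do not allow a comparison.

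CLIP reads on other genes of the pathway were not called different either. Of the 10 stimulatory transduction genes, all 10 were tested and had higher mean CLIP values after methamphetamine (median 0.47, log2, against 0.039 over all genes tested). Of 14 inhibitory transduction genes tested, 11 were higher and 3 lower (median 0.26). The 3 indirect-pathway genes tested were higher (median 0.59), and the 1 direct-pathway gene tested was lower. Of 6 genes of dopamine synthesis, transport and breakdown, 1 was higher and 5 lower (median -0.45). None passed an adjusted p of 0.05 in edgeR's test. An unadjusted p under 0.05 was found for 2 of those last 6 genes and for no gene of the other pathway lists, against 5.22% of all genes. They included Slc18a2, the vesicular monoamine transporter gene, with a change of -2.46 ± 1.07 (SE, log2; edgeR adjusted p = 0.882). Without methamphetamine replicate 1 the stimulatory list had 6 genes higher and 4 lower (median 0.045), the inhibitory list 8 and 7 (median 0.069), and the indirect-pathway list 2 and 1 (median 0.029). The 9 striatal markers, some of which are in the transduction lists, had a median of 0.31 with 8 higher and 1 lower.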

How the data were processed

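Whole striatum of 6 pools was measured by RNA-seq and by hnRNP H CLIP-seq (3 saline and 3 methamphetamine pools per assay). The submitters' processing notes name Trimmomatic, UMI-tools, STAR, bedtools, Subread, featureCounts, limma, edgeR and the build mm10, without roles; how the peaks were called is not given in the sources used here. The authors deposited RNA levels as log2 CPM on the voom scale (offset of 0.5 reads), per the labels, for 18208 genes. The recovered reads were whole within 0.01 read for 100% of values. The authors deposited CLIP read counts per window, without normalization. The count table has 172271 lines at 147438 distinct positions, each used once. The authors' deposited peak lists give a signal score and p-values and q-values per peak, 1 list per treatment, and their scores were used only to describe peaks. Positions are printed from the deposited start plus 1 to the end (100 nt); the count table's own width is 101 nt, so a position may be off by 1 nt. Gene IDs were matched to GENCODE M21 annotation, and all 5 receptors matched.

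From these files the following was computed. RNA levels and CLIP-to-RNA ratios were tested with limma 3.58.1 (trend; ratios for genes with at least 10 CLIP reads in at least 3 libraries), and CLIP counts per gene and per window with edgeR 4.0.16 (quasi-likelihood test, TMM, filterByExpr), with Benjamini-Hochberg adjustment over all features. The limma test of RNA levels and the edgeR tests were tried on simulated data, and the ratio test and the permutation test were not. DESeq2 1.42.0, other scalings, filters and pseudocounts, a library set term, the replicate number as a block and leaving out each library were the alternatives. No library pair agreed within counting noise. The receptors, gene lists, library sets and named genes were chosen with earlier results of these data known. Named genes are the 5 receptors, the 5 genes closest in profile to Drd1 and to Drd2 (some items are not reported here), windows in a deposited list or with the most reads of their gene, and the 3 genes of each pathway list with the largest change among those with a mean above 1 log2 CPM. The Drd2 3′ UTR window and the Drd1, Drd4 and Drd5 windows outside that rule were named after their values were seen.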

Additional observations from a re-analysis of the deposited data

How the results depend on the processing

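The receptors' changes, the 3 tested windows, the counts of calls and Drd1 minus Drd2 were repeated under the alternatives, 241 values in all, of which 226 kept direction and side of the threshold, 14 reversed in sign and 1 moved. No receptor passed an adjusted p of 0.05 under any of them. Scaling to the striatal marker genes, scaling to plain read totals and edgeR's test on the recovered RNA reads were chosen after seeing the data; edgeR called 0 genes (109 at an unadjusted p under 0.05). Lists of genes were recounted under the same settings; the share in listed windows and the other Drd2 windows were not. Relative to the mean of the striatal marker genes, 7 of 10 stimulatory genes were higher (median 0.053), against a median of 0.243 for all genes. Ppp1r1b, Pde10a and Gng7 of that list are themselves markers, so the list is in part scaled to itself. On the same scale the RNA change was 0.087 for Drd1 and 0.062 for Drd3. With the library set as a covariate, the CLIP-to-RNA change of Drd5 was 0.024, and the Drd2 windows at 26 and 52 kb changed by 0.017 and 0.73, while Drd4 RNA was at -0.005. Leaving out each library in turn gave RNA changes of -0.20 to -0.10 (Drd1), -0.42 to -0.16 (Drd2), -0.58 to 0.13 (Drd3), -0.92 to -0.016 (Drd4) and -0.80 to -0.38 (Drd5). It gave CLIP changes of -0.043 to 1.14 (Drd1), 0.24 to 0.96 (Drd2) and -1.25 to -0.30 (Drd5), and CLIP-to-RNA changes of 0.25 to 1.16, 0.56 to 1.26 and -0.62 to 0.56. The ranges were -1.25 to 0.0071 and -0.81 to 0.35 for the Drd2 windows at 26 and 52 kb, -1.07 to 0.019 for the Drd5 5′ UTR window, and -0.0058 to 0.27 for Drd1 minus Drd2. Without the count filter 414 windows passed an adjusted p of 0.05, 0 of them in a receptor gene; the cause was not tested. Pools with the same replicate number did not deviate together. Their deviations were negatively correlated (-0.35, -0.82 and -0.49 for RNA and -0.36, -0.54 and -0.095 for CLIP). Each replicate number joins an A library of 1 treatment with a B library of the other. With the replicate number as a block (replicate block) the CLIP changes were 0.62 (Drd1), 0.67 (Drd2) and -0.79 (Drd5), and no call changed. At 5 to 30 RNA reads per library for Drd3, Drd4 and Drd5, depth limits what can be seen.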
